A study of Mus musculus with 24 samples.

Results

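The miR-34 and miR-449 family was followed through 24 small RNA libraries made from exosome-enriched fractions (EEFs) of mouse hippocampus. Its 6 members here were miR-34a-5p, miR-34b-5p, miR-34b-3p, miR-34c-5p, miR-34c-3p and miR-449a-5p, listed in the files as mmu-mir-34a-5p, mmu-mir-34b-5p, mmu-mir-34b-3p, mmu-mir-34c-5p, mmu-mir-34c-3p and mmu-mir-449a-5p, and chosen by these names among the 1073 miRNA names with at least 1 read in any library. A library that did not list a name was counted as holding 0 reads of it. Together the 6 members held 10290 of 5371420 reads.

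Mice were male C57BL/6 animals (C57BL/6OlaHsd in the study's methods) aged 6 to 9 weeks. KA mice received 0.3 µg of kainic acid, a glutamate receptor agonist that triggers status epilepticus, in 0.2 µl into the basolateral amygdala, and control mice received PBS by the same route. Midazolam, an anticonvulsant, was given at 8 mg/kg 40 min after the injection, and hippocampi were taken at 24 h or at 2 weeks. EEFs were prepared by ultracentrifugation (UC) or with a precipitation kit (ExoQuick), which gave 8 groups of 3 libraries (method by treatment by time). Each library came from pooled hippocampi, so single animals were not measured, and all EEFs were treated with RNase A to remove RNA outside vesicles. The UC and kit libraries were separate preparations.

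MiRNAs bind messenger RNAs mainly through a seed, bases 2 to 8 of the mature strand, and lower their translation or stability. The miR-34 and miR-449 miRNAs share a seed and are known as abundant products of multiciliated cells, such as those of the ependyma, the airway and the choroid plexus, and the miR-34 genes as targets of the transcription factor p53. MiR-34b and miR-34c are made from one shared primary transcript, miR-34a and miR-449a from others.

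The mature strands are shown because the shared seed defines the family and because the strands shown differ in their 3′ parts. Sequences and positions are from RefSeq (GRCm38.p6), written 5′ to 3′ with the seed in capitals, and 5 of the 6 members had an entry. MiR-34c-5p, the member without an entry in the copy used, is not shown. The first 3 carry the seed GGCAGUG, and the last 2 carry AUCACUA.
miR-34a-5p: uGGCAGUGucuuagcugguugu
miR-34b-5p: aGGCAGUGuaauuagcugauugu
miR-449a-5p: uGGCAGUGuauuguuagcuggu
miR-34b-3p: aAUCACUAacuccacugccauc
miR-34c-3p: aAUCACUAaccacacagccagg

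Of 1679 mature names in the RefSeq table, 4 carried GGCAGUG, namely these 3 members and miR-449c-5p. MiR-34c-5p could not be counted because it had no entry. The seed AUCACUA occurred in 2 names, both members. MiR-34b-3p and miR-34c-3p had the same base at 17 of 22 positions, and miR-34a-5p and miR-449a-5p at 15 of 22. MiR-34a-5p lies at chr4:150068473-150068494 on the plus strand, and its hairpin falls in an exon of Gm37795, a gene of the annotation's type TEC. The hairpins Mir34c (chr9:51103034-51103110) and Mir34b (chr9:51103562-51103645) lie on the minus strand with 451 bases between them, inside an intron of Btg4, which is on the plus strand. Mir449a (chr13:113037534-113037624) lies in an intron of Cdc20b on the same strand, 1442 bases from Mir449c. The longest stretch shared by the Mir34b and Mir34c hairpins was 11 bases. The sources used here do not say how reads that match several hairpins were assigned, so reads of the family, above all very short ones, are uncertain as to the copy. The mature strand of miR-34c-5p was not compared, so how well its reads can be told from those of miR-34b-5p is not known here.

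The depth decided which members could be compared. Total counts were 85436 to 169639 per UC library and 154884 to 676726 per kit library, so that 1 read was worth 5.89 to 11.7 CPM (reads per 1000000 assigned reads) with UC and 1.48 to 6.46 CPM in kit libraries. A miRNA was tested when it exceeded 1 CPM in at least 6 of the 12 libraries of a method. MiR-34a-5p, miR-34b-5p and miR-34c-5p passed with both methods, and all 6 members passed with the kit alone. Intervals given for read counts cover counting error only.

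One strand made up nearly the whole family. MiR-34c-5p held 93.8% of the family's reads, between 90.2 and 97.6% in single libraries, and was the most abundant member in 24 of 24. Its mean level was 1366 ± 489 CPM in UC libraries and 2067 ± 635 CPM in kit libraries (SD, n = 12 each), which ranked it 58th of 859 names with UC and 50th of 961 with the kit. MiR-34b-5p, from the same cluster, followed at 34.9 ± 20.6 CPM in UC libraries and 72.0 ± 51.9 CPM in kit libraries. MiR-34a-5p stood at 26.2 ± 10.8 and 50.0 ± 16.4 CPM, and the spreads of miR-34b-5p and miR-34a-5p overlapped within each method. MiR-449a-5p had a mean of 4.67 CPM in UC and 8.27 CPM in kit libraries. The 3p strands were lowest, with means of 1.92 and 4.06 CPM for miR-34b-3p and of 0.669 and 2.87 CPM for miR-34c-3p. Levels of different miRNAs also carry differences in ligation and mapping, so this order is one of reads.

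The relatives outside the member list were close to absent at this depth. MiR-34a-3p had 8 reads in 4 libraries, miR-449c-5p had 3 reads in 3 libraries and miR-449b had 1 read. MiR-449a-3p and miR-449c-3p were listed in no library.

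**Figure D1:**
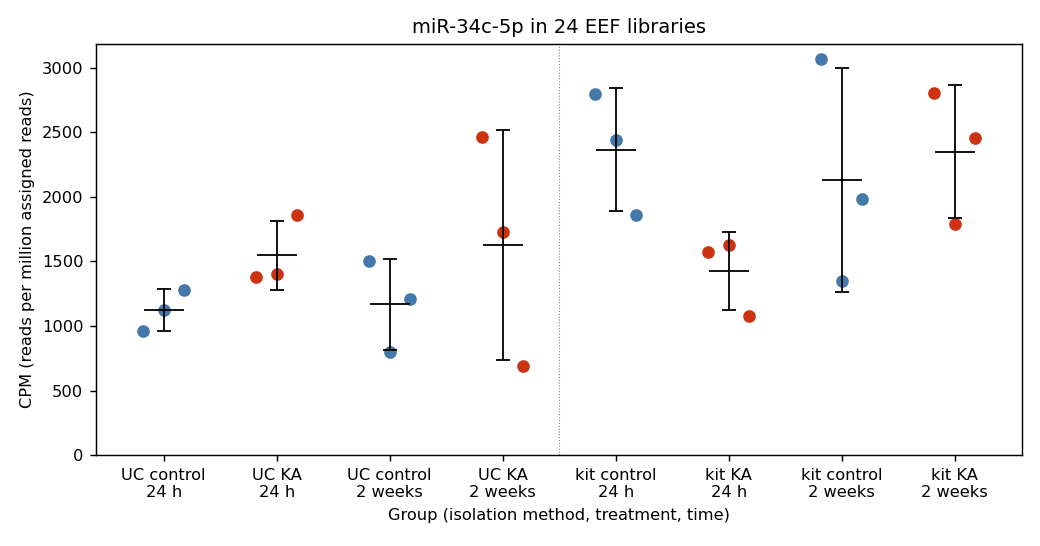
MiR-34c-5p in CPM (y axis) for each of the 24 libraries (points), by method, treatment and time (x axis). Blue points are control and red points KA libraries, and black marks give the mean ± SD of 3 libraries. The kit means lie above the UC means except after KA at 24 h, and KA libraries lie above the controls with UC at 24 h but below them with the kit at 24 h.

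The isolation method gave the comparison in which members passed the test. In edgeR's quasi-likelihood test over all 24 libraries, with treatment and time in the model, 3 of 3 members tested were higher with the kit than with UC. Against this, 66.2% of all 397 miRNAs tested were called between the methods with 32.7% higher and 33.5% lower with the kit, so a call by itself was common. MiR-34c-5p was higher by 0.57 on the log2 scale (SE 0.17, adjusted p = 0.00489). MiR-34a-5p was higher by 0.87 (SE 0.27, adjusted p = 0.00496 in edgeR), and miR-34b-5p by 1.02 (SE 0.37, adjusted p = 0.0176 in edgeR). The median over all miRNAs tested was -0.01. The ranges of UC and kit libraries overlapped for all 3, for example 695 to 2466 CPM against 1075 to 3064 CPM for miR-34c-5p. By comparison, groups did not overlap for 10.8% of all miRNAs.

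These calls depended on scaling and, for the 2 scarcer members, on which reads were counted. When the libraries were scaled by the geometric mean of miR-92b-3p and miR-25-3p, 0 of 3 members passed in edgeR. MiR-34c-5p was then higher by 0.10, beside a shift of -0.42 in the median of all miRNAs. With only the reads listed without any change, a setting chosen after seeing the data, miR-34c-5p still passed (0.48, SE 0.18, adjusted p = 0.0229 in edgeR). MiR-34a-5p (0.59, adjusted p = 0.104) and miR-34b-5p (0.79, adjusted p = 0.0881) then did not pass edgeR's test. Without the first kit control at 2 weeks, whose 44 reads of miR-34b-5p were the most of any library, miR-34b-5p was higher by 0.75 and did not pass (adjusted p = 0.0717 in edgeR).

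Marker miRNAs of several cell types also differed between the methods. The summed level of the endothelial pair miR-126a-3p and miR-126a-5p was 218 to 609 CPM in UC libraries and 2101 to 3242 CPM in kit libraries. The 3 oligodendrocyte names summed to 6137 to 10960 CPM after UC, against 1760 to 2255 CPM for the kit. MiR-219a-2-3p carried most of the UC sum (means of 7007 and 854 CPM), and miR-338-3p (1232 and 1065 CPM) was not called. The 4 neuronal names (miR-124-3p, miR-128-3p, miR-218-5p and miR-138-5p) summed to 14330 to 19850 CPM and to 18720 to 37980 CPM. Among them 2 of 4 were called higher with the kit, beside 32.7% of all miRNAs, and miR-124-3p differed by -0.02 on the log2 scale. No microglial or myeloid name (2 tested) and no red blood cell name (1 tested) was called. Of the choroid plexus list, 2 of 6 names tested were higher and 1 lower with the kit, and its sum was 554 to 3562 CPM in UC and 969 to 4013 CPM in kit libraries. The list holds 11 names, of which miR-764-5p and miR-1264-5p were at 0 in every library and miR-204-5p carried most of the sum. The part of these differences in the result for the family was not tested. In such EEFs a smaller contribution of one cell type and less RNA per cell or vesicle cannot be told apart.

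Next, levels after status epilepticus were compared with PBS at each time and with each method. No member passed an adjusted p of 0.05 in any of the 4 comparisons in edgeR, DESeq2 or limma-voom. At an unadjusted p under 0.05 in edgeR the counts were 0 of 3 with UC at 24 h, 1 of 3 with UC at 2 weeks, 0 of 6 with the kit at 24 h and 0 of 6 with the kit at 2 weeks. The share of all miRNAs past the adjusted threshold was 0.476%, 0.952%, 0.0% and 0.0% in the same order, and past the unadjusted one 2.86%, 7.86%, 4.62% and 2.69%. Since replicates were scarce, a change of moderate size could have been missed. In simulated data for UC at 24 h, 32% of miRNAs changed by 2-fold and 62% of those changed by 4-fold were called. For the kit at 24 h the rates were 17% and 59%. Each simulation altered 200 names, out of 420 (UC) or 520 (kit), a far larger share than was called in the real data. The adjustment is stricter when fewer names change, so these rates may be too high for the real comparisons. They were not split by abundance, so the rate for members with few reads is not known.

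With UC at 24 h, miR-34c-5p was at 960, 1126 and 1281 CPM in the controls and at 1381, 1405 and 1857 CPM after KA. Every KA library was above every control. The log2 difference was 0.38 (SE 0.32, adjusted p = 1.0 in edgeR), and groups did not overlap for 9.76% of all 420 miRNAs tested in this comparison. It was 0.20 without the third KA replicate and 0.25 without the first control, the highest and the lowest of the 6 libraries. The other 2 members tested, miR-34a-5p and miR-34b-5p, had differences of 0.35 and -0.06.

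With the kit at 24 h the order was the opposite. MiR-34c-5p was at 1856, 2441 and 2795 CPM in the controls and at 1075, 1573 and 1626 CPM after KA, so that every KA library was below every control. Here 9.04% of all 520 miRNAs had groups that did not overlap. The log2 difference was -0.62 (SE 0.32, adjusted p = 0.839 in edgeR). Differences of the other 5 members were between -0.86 and 0.17, with standard errors up to 1.44 for the 3p strands. The choroid plexus sum was 1717 to 3422 CPM in these controls and 969 to 3120 CPM after KA, and the lowest library of both measures was the third KA replicate. Without that library the difference of miR-34c-5p was -0.52.

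The 2 effects at 24 h were then compared with each other. The KA effect with the kit was lower than that with UC by a log2 difference of -1.0 (SE 0.47, adjusted p = 0.996 over 397 miRNAs in edgeR). Its unadjusted p was under 0.05, as for 2.27% of all miRNAs, and none of them passed after adjustment. At 2 weeks the same interaction was -0.32 (SE 0.46, adjusted p = 0.996 in edgeR), with 3.53% of all miRNAs at an unadjusted p under 0.05. Within a method, the KA effect at 2 weeks minus that at 24 h was 0.15 (SE 0.45) with UC and 0.74 (SE 0.45) with the kit, and neither passed edgeR's test (adjusted p = 0.991 and adjusted p = 0.986). In these interactions 6.9% and 3.27% of all miRNAs had an unadjusted p under 0.05, among them no member.

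With UC at 2 weeks, miR-34b-5p had 4, 2 and 2 reads in the controls and 9, 12 and 8 reads after KA. This was 11.8 to 32.1 CPM against 47.5 to 79.9 CPM, and the groups did not overlap, which was so for 10.2% of all miRNAs. The log2 difference was 1.5 (SE 0.67, adjusted p = 0.577 in edgeR), and the unadjusted p was under 0.05. MiR-34c-5p from the same cluster was at 796, 1206 and 1502 CPM in the controls and at 695, 1724 and 2466 CPM after KA. Its groups overlapped through 1 library, the third KA replicate, which had the lowest level of all 12 UC libraries. The log2 difference was 0.52 with this library (SE 0.32, adjusted p = 0.624 in edgeR), 0.92 without it (SE 0.29, adjusted p = 0.18) and 0.18 without the first KA replicate, the highest of the UC libraries. MiR-34b-5p differed by 1.63 without the third KA replicate.

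That library also stood apart in its choroid plexus names. Their sum was 3562 CPM, against 554 to 1584 CPM in the other 11 UC libraries, so that the lowest level of miR-34c-5p and the highest of these markers occurred together. The ratio of miR-34c-5p to the sum was 0.195 there and 0.754 to 1.60 in the other UC libraries. Of the 6 choroid plexus names tested with UC at 2 weeks, miR-204-5p (log2 difference 1.88, adjusted p = 0.0149 in edgeR) and miR-1298-5p (1.39, adjusted p = 0.0473) were higher after KA, beside 0.952% of all miRNAs called. With library sizes alone or with scaling to miR-92b-3p and miR-25-3p, 0 of 420 miRNAs were called in edgeR. Their part in the result for miR-34c-5p was not tested. MiR-34a-5p, with 2, 6 and 1 reads in controls and 6, 3 and 3 reads after KA, showed a difference of 0.12.

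With the kit at 2 weeks, miR-34c-5p was at 1345, 1983 and 3064 CPM in the controls and at 1789, 2455 and 2805 CPM after KA. The groups overlapped, as they did for all 6 members, while 4.81% of all miRNAs had groups that did not overlap. The log2 difference was 0.12 (SE 0.31, adjusted p = 0.998 in edgeR). Differences of the other members were between -0.61 and 0.32. Over both methods and times, the difference between KA and control was 0.12 for miR-34c-5p (SE 0.17, adjusted p = 0.874 in edgeR), and the 3 members tested lay between 0.02 and 0.30 with a median of 0.12 beside 0.07 over all 397 miRNAs. In this pooled comparison no member had an unadjusted p under 0.05, while 6.05% of all miRNAs did and 0.504% passed after adjustment.

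**Figure D2:**
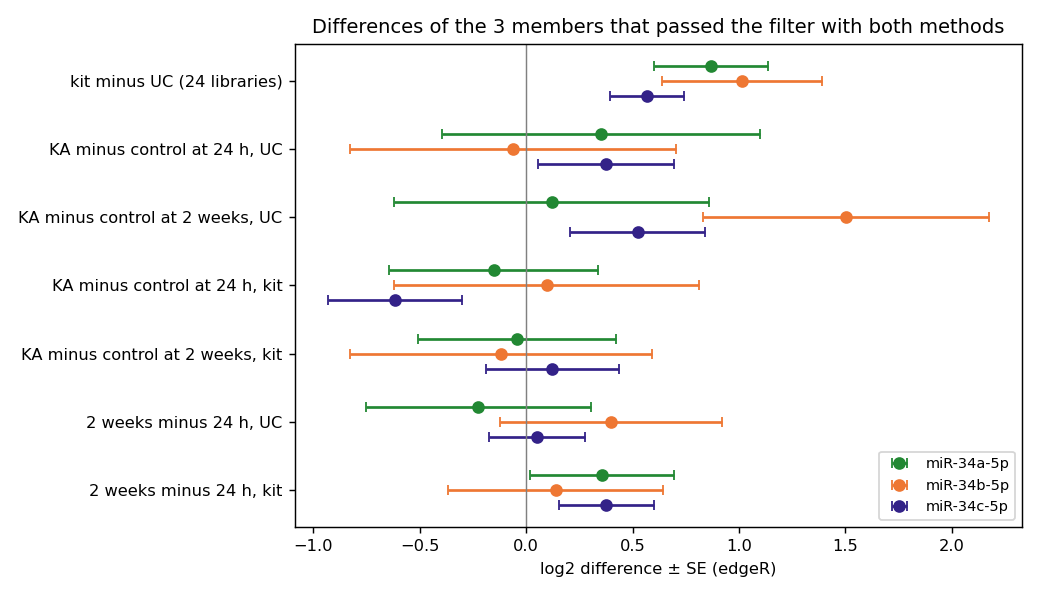
Log2 differences (x axis) with standard errors from edgeR for the 3 members that passed the filter with both methods, in 7 comparisons (y axis). The differences between kit and UC lie above 0 for all 3, and miR-34c-5p lies at -0.62 for KA with the kit at 24 h and at 0.38 with UC at 24 h.

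Between 24 h and 2 weeks no member passed in edgeR, DESeq2 or limma-voom, and none had an unadjusted p under 0.05 in edgeR. MiR-34c-5p differed by 0.05 with UC (SE 0.22) and by 0.38 with the kit (SE 0.22, adjusted p = 0.883 in edgeR). With the kit, all 6 members had positive differences, between 0.14 and 1.09 and with a median of 0.39, beside a median of 0.02 over all 520 miRNAs. The largest was that of miR-34b-3p (SE 0.87, 18 kit reads), and miR-34c-3p had an SE of 0.86 from 13 kit reads. The strands of miR-34b and miR-34c come from one primary transcript, so the members are not independent. The share of all miRNAs with a positive difference was not counted. With UC the 3 members tested ran from -0.22 to 0.40. Of all miRNAs, 11.2% with UC and 5.19% with the kit had an unadjusted p under 0.05 between the times. Over both methods and treatments miR-34c-5p differed by 0.18 (SE 0.17), and 7.05% of all miRNAs had an unadjusted p under 0.05 and 0.252% an adjusted one.

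The scarce members were described by reads. MiR-449a-5p, made from its own cluster on another chromosome, had 7 reads in 4 of the 6 UC controls and 0 reads in the 6 UC libraries after KA, where 3 reads would correspond to 3.70 CPM over the summed libraries. The level in the UC controls was 9.35 CPM from summed reads (95% exact interval 3.76 to 19.3). In the UC libraries after KA the same kind of interval was 0 to 4.55 CPM, so the intervals overlapped. How many of all miRNAs showed such a pattern was not counted. With the kit, 15 reads were found in 5 of 6 controls and 19 in 5 of 6 KA libraries, or 9.21 and 8.70 CPM from summed reads. MiR-449a-5p did not pass the filter with UC. Without a filter, its adjusted p for KA with UC was 0.878 at 24 h and 0.818 at 2 weeks in edgeR.

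MiR-34a-5p, a well-known target of p53, was found in all 24 libraries with 1 to 6 reads each with UC and 7 to 35 reads each with the kit. Its kit levels ran from 24.1 to 77.2 CPM in controls at 24 h and from 25.6 to 59.1 CPM after KA, and at 2 weeks from 35.6 to 68.4 and from 51.7 to 56.7 CPM. The groups overlapped at both times. MiR-34b-5p ran from 13.7 to 157 CPM in the kit controls at 2 weeks, and the first replicate was the highest of every kit group.

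**Figure D3:**
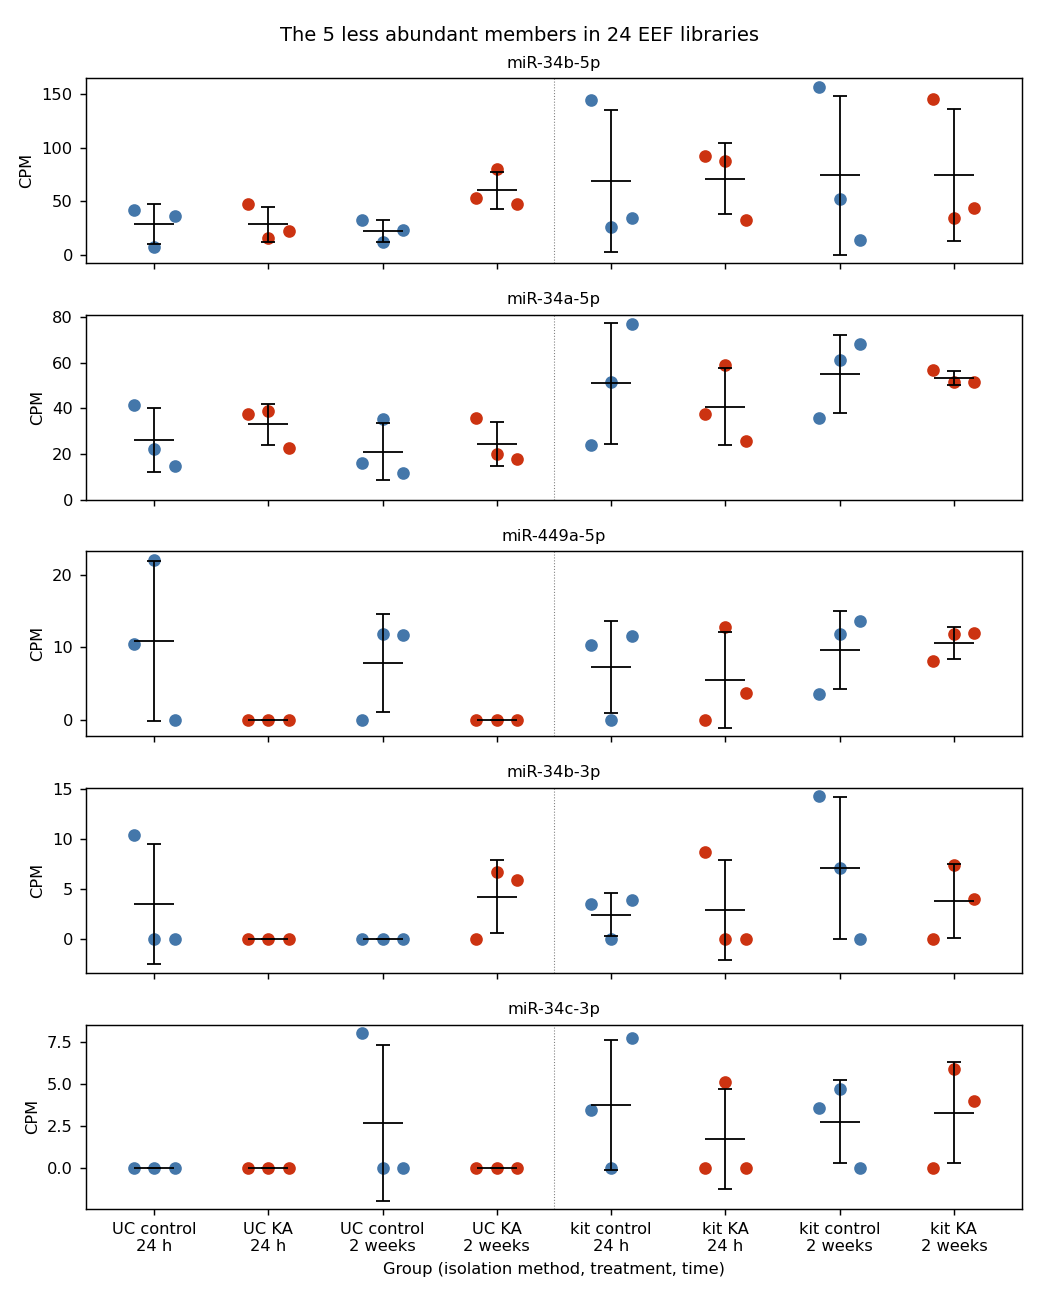
CPM (y axes, scaled for each member) of the 5 less abundant members in each library (points), by group (x axis). Blue points are control and red points KA libraries, and black marks give the mean ± SD of 3 libraries. MiR-449a-5p is at 0 in the 6 UC libraries after KA, and the 3p strands are at 0 in most UC libraries.

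The strands of one hairpin were very unequal. For miR-34c, 14 of 9671 reads came from the 3p strand, a share of 0.145% (95% exact binomial interval 0.0792 to 0.243%). For miR-34b it was 21 of 346 reads, or 6.07% (3.80 to 9.13%). Reads of the 3p strand were found in 1 of 12 UC libraries for miR-34c and in 3 of 12 for miR-34b, and in 7 of 12 kit libraries for each. In a two-sided exact permutation test within strata of the other factors, the mean 3p share of miR-34c did not differ past the threshold between kit and UC (0.151% and 0.0443%, p = 0.131), KA and control (p = 0.39) or the times (p = 0.46), with n = 12 in each arm and adjusted p of 0.393 or more over 6 tests. The 3p strand of miR-34c had 14 reads in all and was absent from most libraries, so this test could hardly show a difference. For miR-34b some libraries held under 10 reads of the hairpin, and its share was not tested.

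The 2 members of one primary transcript also differed in level throughout. There were 3.37 reads of miR-34b-5p for every 100 of miR-34c-5p over all libraries, 2.63 with UC and 3.57 with the kit. In single libraries the ratio ran from 0.654 to 6.84. It was highest in the third UC library after KA at 2 weeks, where miR-34c-5p was lowest.

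Changed ends told the members apart. The deposited modification table lists each read pattern that departs from the mature sequence. Of miR-34c-5p reads, 3.17% (306 of 9657) carried any change. Over all miRNAs 88.4% of reads were listed without one. The share was 20.3% for miR-34b-5p (66 of 325), 15.9% for miR-34a-5p (37 of 232) and 26.8% for miR-449a-5p (11 of 41). The 95% exact binomial intervals, 16.1 to 25.1% for miR-34b-5p and 11.5 to 21.3% for miR-34a-5p, lay above that of miR-34c-5p, 2.83 to 3.54%.

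One form made up most changed reads of miR-34b-5p and miR-34a-5p. The last bases of the mature strand were replaced, from 4 to 8 bases inside its end, by a string of 4 to 9 other bases. Such replaced ends made up 59 of 325 reads of miR-34b-5p (18.2%), 28 of 232 of miR-34a-5p (12.1%), 5 of 41 of miR-449a-5p (12.2%) and 60 of 9657 of miR-34c-5p (0.621%). MiR-34c-5p and miR-34b-5p thus held nearly equal numbers of such reads at very different levels. The string held only A and G up to a final C in 58, 27, 5 and 59 of these reads, in the same order of members. Over all miRNAs that was so for 35159 of 88814 reads with a replaced 3′ end. The methods differed here, with 31379 of 51159 such reads in kit libraries and 3780 of 37655 in UC libraries. Most replaced ends of the members came from kit libraries, for example 53 of the 59 reads of miR-34b-5p. Among 259 miRNAs with at least 200 reads, miR-34b-5p ranked 7th and miR-34a-5p 13th for the share of such reads, while miR-34c-5p ranked 120th and the median was 0.412%. With the kit the share was 19.7% for miR-34b-5p and 13.6% for miR-34a-5p, and with UC 10.7% and 4.88%, from 6 and 2 reads. Over all miRNAs it was 1.342% with the kit and 2.415% with UC. Reads of this form match the mature strand only over its 5′ part.

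**Figure D4:**
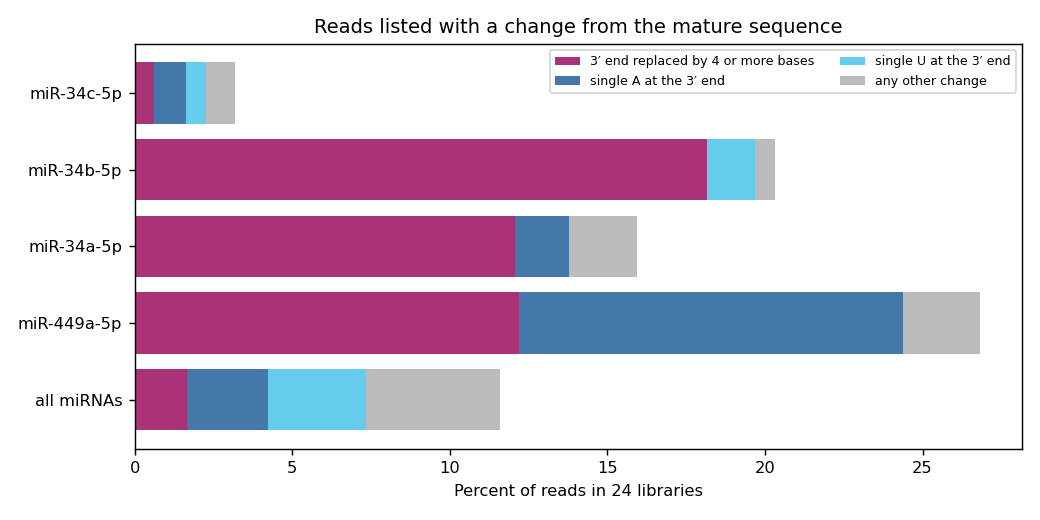
Percent of reads in the 24 libraries (x axis) that were listed with a change from the mature sequence, for the 4 members on the 5p strand and for all miRNAs (y axis), by kind of change. Replaced 3′ ends make up 18.2% of miR-34b-5p reads and 0.621% of miR-34c-5p reads, and the bar of miR-449a-5p rests on 41 reads.

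In miR-34c-5p the commonest changes were single bases at the 3′ end, an A in 98 reads (1.01%) and a U in 60 reads (0.621%), each found in 21 of 24 libraries. Over all miRNAs these additions made up 2.59% and 3.10% of reads. Internal A-to-G changes, the form that editing by ADAR leaves, were the only change in 4 reads of miR-34c-5p and 1 read of miR-34b-5p. The share of changed miR-34c-5p reads was 3.62% ± 1.28 after KA and 2.63% ± 1.09 in controls (SD, n = 12 each). The difference of 0.986 percentage points did not pass a two-sided exact permutation test (p = 0.0646, adjusted p = 0.388 over 6 tests). From summed reads the shares were 3.26% and 3.06%, a difference of 0.201 percentage points. Changed shares were 3.35% with the kit and 2.89% with UC (exact permutation p = 0.362), and 2.95% at 2 weeks and 3.30% at 24 h (exact permutation p = 0.498).

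Last, miR-34c-5p was set beside other miRNAs across the 24 libraries, as log2 CPM less the mean of each method. The 5 names with the highest Pearson correlation among 242 were miR-149-5p (0.55), miR-1298-5p (0.55), miR-1195 (0.54), miR-1298-3p (0.48) and miR-140-3p (0.46). Within single methods the values could differ. MiR-149-5p had 0.521 with UC and 0.59 with the kit, but miR-140-3p had 0.803 and 0.137. Both strands of miR-1298 belong to the choroid plexus list, while miR-448-3p and miR-204-5p of that list had 0.315 and 0.14. With UC and the kit, miR-1298-5p had 0.295 and 0.739, miR-1298-3p 0.357 and 0.609, and miR-204-5p -0.0722 and 0.47. MiR-34b-5p ranked 9th with 0.40, and miR-34a-5p had -0.06. The neuronal names disagreed: miR-124-3p had -0.60 (ranked 240th), miR-128-3p -0.44, miR-218-5p -0.22 and miR-138-5p 0.27. The oligodendrocyte names miR-219a-2-3p, miR-338-3p and miR-219a-5p had 0.385 (ranked 11th), 0.05 and -0.05. All points share the libraries, the scaling and the method, and these values are descriptions without a test.

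**Figure D5:**
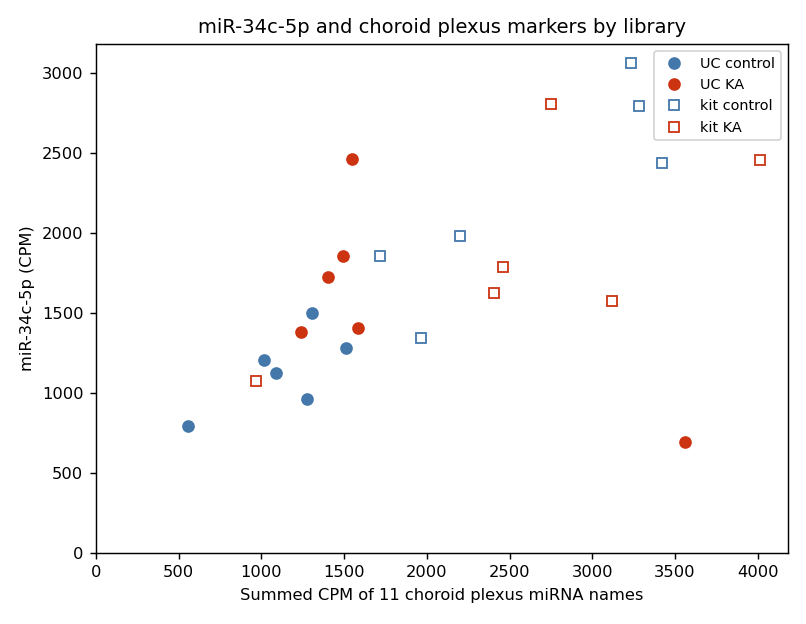
MiR-34c-5p in CPM (y axis) against the summed CPM of 11 choroid plexus miRNA names (x axis) in each library, with filled circles for UC, open squares for the kit, blue for control and red for KA. The UC library at 3562 CPM of the markers has the lowest miR-34c-5p, 695 CPM.

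MiRNAs linked to p53 by their promoters or processing formed a further list of 8 names, 4 of them tested with both methods. Between the methods 3 of 4 were higher with the kit, among them miR-16-5p by 1.66 on the log2 scale (SE 0.19), beside the 32.7% of all miRNAs. None of the list passed an adjusted p of 0.05 for KA in edgeR in any of the 4 comparisons. At an unadjusted p under 0.05 the counts were 1 of 4 with UC at 24 h and 2 of 4 with UC at 2 weeks. They were 1 of 8 with the kit at 24 h and 0 of 8 with the kit at 2 weeks. Of all miRNAs, 2.86%, 7.86%, 4.62% and 2.69% had such a p in the same order. Both counts at 24 h came from miR-107-3p (log2 differences of 1.09 with UC and 0.833 with the kit). The study already reports this miRNA as raised after KA in the same libraries. The counts that hold it are therefore not independent of that report. With UC at 2 weeks the names were miR-16-5p (0.716) and miR-192-5p (0.712). The medians of the list were 0.20, 0.45, 0.22 and 0.25, and those of the family's members 0.35, 0.52, -0.26 and 0.04, beside 0.06, 0.02, 0.09 and -0.01 over all miRNAs tested.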

How the data were processed

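Small RNA was sequenced from RNase-treated hippocampal EEFs. The authors trimmed the reads and mapped them to miRBase hairpins with the Chimira webserver, and deposited counts of reads per mature miRNA and per modification pattern for each library, without normalization. The version of the server is not given in the sources used here. Groups (method, treatment, time) came from the sample labels. The members and all lists were chosen with earlier results of these data known. The quasi-likelihood test of edgeR 4.0.16 (run in R 4.3.3, with TMM scaling and Benjamini-Hochberg adjustment over all miRNAs tested) was applied to the counts, with 1 mean per group in each fit of the 12 libraries of a method, and with method, treatment and time as terms over all 24 libraries. Interactions of treatment with method used 8 group means. Standard errors came from the log2 difference and the F statistic. A miRNA entered when it exceeded 1 CPM in at least 6 libraries of each method fitted. DESeq2 1.42.0, limma-voom (limma 3.58.1), other scalings and filters, fits of the 6 libraries compared, the replicate number as a block and each library left out were alternatives. The test was first tried on simulated data.

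CPM is reads per 1000000 assigned reads. Changed reads are the total count less the reads listed without a change. Shares were tested by two-sided exact permutation within strata of the other 2 factors (160000 arrangements, Python 3.11.15), where every library held at least 10 reads. Values are given in full for miR-34c-5p and for members with an unadjusted p under 0.05, and as ranges for the rest. The correlations used miRNAs with a mean of at least 10 reads. The chi-square per degree of freedom between replicates of a group was 5.12 to 156, so no library was a copy of another in its group. Libraries of different groups were not compared in this way. Replicate numbers come from the labels, and control and KA libraries with the same number deviated together (correlation over 0.1) in all 3 pairs of each method at 2 weeks (0.111 to 0.31) and in 1 of 6 pairs at 24 h (-0.246 to 0.112). The numbers were therefore taken to pair the libraries at 2 weeks only. The block run as an alternative was shared by both times of a method, so it was not this pairing. The values printed are from fits without the block, which changed no call. A fit paired at 2 weeks only was not run. Each library is a pool of hippocampi, and the p-values measure the spread between pools.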

Additional observations from a re-analysis of the deposited data

Results flagged for a closer look

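The KA effect on miR-34c-5p at 24 h had opposite signs with the isolation methods, a difference that did not pass the test after adjustment. All 3 UC libraries after KA were above all 3 UC controls, and all 3 kit libraries after KA were below all 3 kit controls. Groups at 24 h did not overlap for 9.76% of all 420 miRNAs tested with UC and 9.04% of all 520 with the kit. The difference of the effects was -1.0 on the log2 scale (SE 0.47, adjusted p = 0.996 in edgeR). It was picked up for an unadjusted p under 0.05, which 2.27% of all 397 miRNAs had. It kept its direction when each of the 24 libraries was left out, with values from -1.39 to -0.73. With groups that did not overlap for either method, this direction was all but fixed beforehand and adds no support. The methods were applied to separate preparations, and the choroid plexus sum was 1717 to 3422 CPM in kit controls and 969 to 3120 CPM after KA, with overlapping ranges and no name of the list called. With UC it was 1089 to 1514 CPM and 1240 to 1584 CPM. The part of these markers in the result was not tested.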

How the results depend on the processing

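Of 752 recomputed values, 728 kept their direction and their side of the threshold or, for counts of members, stayed within 1.5 times the count reported. The number of members past an adjusted p of 0.05 between kit and UC was 0 of 3 with scaling by miR-92b-3p and miR-25-3p, 1 of 3 with reads without any change only (chosen after seeing the data), and 1 of 1 when at least 10 reads were required in at least 6 libraries, a filter that left miR-34c-5p as the only member tested. Without a filter it was 3 of 6. It was 2 to 3 when a library was left out: without the first kit control at 2 weeks, miR-34b-5p was at 0.75. In limma-voom miR-34b-5p (0.71) did not pass either. The cause was not tested. Scaling to that pair also turned miR-34c-5p to -0.087 between the times with UC, to -0.39 for the KA effect at 2 weeks less that at 24 h with UC, and to -0.15 for KA over both methods and times, beside shifts of all miRNAs of -0.26, -0.56 and -0.22. With the stricter filter miR-34c-5p was at -0.00130 between the times with UC. The KA differences of miR-34c-5p kept their sign but changed in size over the alternatives other than leaving out 1 library. With UC they ran from 0.34 to 0.46 at 24 h and from 0.039 to 0.92 at 2 weeks. With the kit they ran from -1.155 to -0.52 at 24 h and from 0.030 to 0.19 at 2 weeks. Leaving out 1 library moved the uncalled differences of miR-34c-5p over 0, from -0.12 to 0.24 between the times with UC, from -0.20 to 0.58 for the KA effect at 2 weeks less that at 24 h with UC, from -0.050 to 0.53 for KA with the kit at 2 weeks, and from -0.60 to 0.076 for the interaction with method at 2 weeks. The 0 members called for KA, for time and for the interactions remained 0 under every alternative run, including all libraries left out in turn. Without 1 replicate number, the arm share of miR-34c differed between kit and UC by 0.0354 to 0.196 percentage points (exact permutation p from 0.0417 to 0.722) and between KA and control by -0.128 to 0.00525, and the changed share between KA and control by 0.795 to 1.32 (exact permutation p from 0.0324 to 0.253). The replicate block, shared by both times of a method, changed no call. With it miR-34c-5p differed by 0.52 and miR-34b-5p by 1.53 for KA with UC at 2 weeks, and 3 of 3 members still passed between kit and UC. Of 12 pairs of libraries with the same number, 7 deviated together with a correlation over 0.1 (-0.246 to 0.31). Depth limits miR-34a-5p and miR-34b-5p to at most 12 reads in a UC library, and miR-449a-5p and the 3p strands to at most 3 reads in a UC library.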
